A study of Drosophila melanogaster with 54 samples.

Results

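Gene expression was compared between whole male flies (Drosophila melanogaster) that carried 2 copies of FLucDM-GFP directed to the mitochondria (Mito) and whole male flies that carried 2 copies of the same protein directed to the nucleus (NLS). The 18 libraries, 9 of Mito and 9 of NLS flies, were taken by their column names in the deposited expression table and are 18 of its 54 libraries. Flies of both strains were 10 days old and had been reared at 18, 25 or 29 °C, with 3 libraries for each strain and temperature. The other 36 libraries came from flies with 1 copy of the Mito, NLS or cytoplasmic (Cyto) protein and from w1118, the control without the transgene, at the same temperatures. They entered the model, and the 1-copy Mito and NLS flies and w1118 are used below for comparison. The labels name the strains by the targeted protein and the number of copies, and the promoter that drives the transgene is not given in the sources used here. Each targeted protein and copy number is a strain of its own, so other genetic differences between the Mito and NLS strains cannot be told apart from the place of the protein.

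FLucDM-GFP is a firefly luciferase that carries destabilising mutations and is fused to green fluorescent protein, and it misfolds easily. Cells answer misfolded protein in different places with different genes: heat-shock factor drives the cytosolic and nuclear chaperones, damaged mitochondria can induce their own chaperones and proteases, and the endoplasmic reticulum has its own unfolded protein response. Most proteins of the mitochondrion are encoded in the nucleus and imported, while a small set of respiratory subunits is encoded in the mitochondrial genome. In a male fly a large share of the RNA comes from the testis, where many genes for mitochondrial proteins have a duplicate copy used mainly in the male germ line.

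Values are TPM, a transcript abundance scaled for gene length and for the library total, and a difference is Mito minus NLS on the scale of log2(TPM + 1), so that a positive value is higher in Mito flies and changes of weakly expressed genes are understated. Unless a temperature is named, it is the mean of the differences at 18, 25 and 29 °C. Genes are called at an adjusted p (limma, Benjamini-Hochberg over 12555 genes) under 0.05. Lack of overlap was common over all genes. All 3 Mito libraries were above all 3 NLS libraries in 16.1% of genes at 18 °C, 20.4% at 25 °C and 25.2% at 29 °C. They were below in 14.9%, 19.2% and 16.8%. The share of all genes in which the 9 libraries of each strain did not overlap was not counted. Where such a lack of overlap is given below, it has no share of all genes beside it. Many of those genes were named for large differences. Between 11995 and 12107 genes reached 1 TPM in each of the 18 libraries, and libraries of the same strain and temperature were correlated at r = 0.9903 to 0.9963. TPM keeps no read depth, and nothing in the labels tells whether replicates came from distinct cultures, so each p-value reflects only library-to-library spread, which may be technical. FLucDM-GFP itself has no line in the table. The white gene w, which is mutant in w1118 and is carried by many transgenes as a marker, stood at 6.01 to 10.9 TPM (median 7.64) in Mito, 4.49 to 9.28 TPM (median 6.81) in NLS and 0.985 to 4.39 TPM (median 2.15) in w1118 libraries. By high antimicrobial peptide transcripts, 3 libraries stood apart (2 of Mito at 29 °C and 1 of NLS at 18 °C). Counts of 3 or more members of a list are given without them, or said to be fewer, where they differ by more than 1.5 times. That fit keeps 1 Mito library at 29 °C. It cannot tell a dependence on the 3 libraries from the smaller number of libraries.

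The strains differed in many genes by small amounts. Of the 12555 genes tested, 5939 (47.3%) differed over the 3 temperatures, 3106 (24.7%) of them higher and 2833 (22.6%) lower in Mito flies. For every list below, a count over the 3 temperatures is to be read beside these shares of all genes. The median size of a called difference was 0.20, and 40 genes differed at least 2-fold, 17 of them higher and 23 lower. The median over all genes was -0.01. In 5277 (88.9%) of the called genes the difference had the same sign at 18, 25 and 29 °C, and 526 genes were higher and 250 lower by the test at every single temperature. Against w1118, 7017 genes were called in Mito and 8425 in NLS flies. The transgene and other genetic differences from w1118 cannot be told apart there.

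The same 2 proteins at 1 copy gave a comparison from 18 other libraries. There 3900 genes (31.1%) differed, 2415 (19.2%) higher and 1485 (11.8%) lower in Mito flies. Of the genes called at 2 copies, 5434 (91.5%) had the same sign at 1 copy. The 3083 genes called with the same sign in both comparisons made up 51.9% of the genes called at 2 copies and 79.1% of those called at 1 copy, and 23 genes were called with opposite signs. Across the 12555 genes the differences at 2 copies and at 1 copy were correlated at r = 0.764, and genes are not independent replicates. Of the 40 genes that differed at least 2-fold at 2 copies, 39 had the same sign at 1 copy and 33 were also called there.

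**Figure D1:**
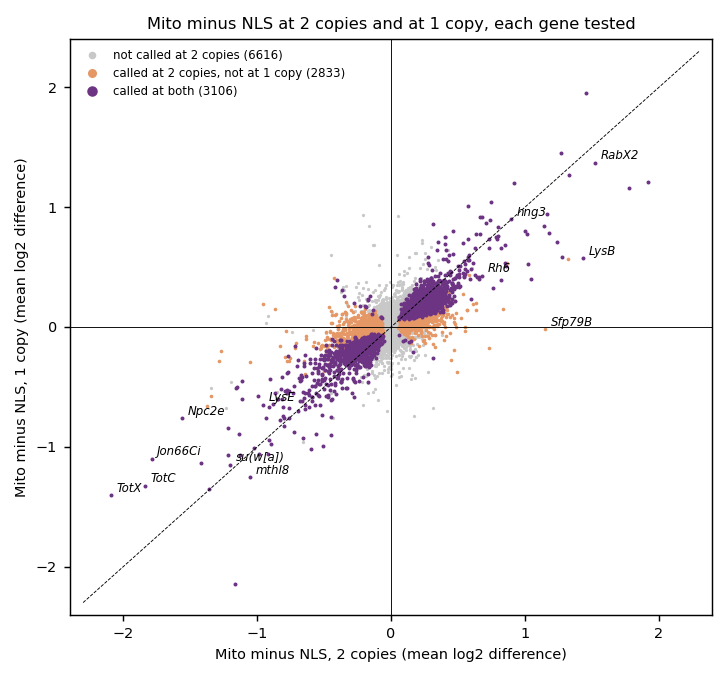
Each point is 1 of the 12555 genes tested. The horizontal axis is the Mito minus NLS difference at 2 copies and the vertical axis the same difference at 1 copy. Both are in log2(TPM + 1) and averaged over 18, 25 and 29 °C. Purple points were called at both copy numbers, orange points at 2 copies but not at 1, and the dashed line marks equal differences. TotX and RabX2 lie far out in the same direction at both copy numbers.

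Testis transcripts were higher in Mito flies. Of 38 testis and sperm genes tested, 36 were higher and none lower, with a median difference of 0.29 beside -0.01 for all genes. Mst98Ca, which encodes a sperm tail protein, ranged over 678 to 946 TPM (median 750.3) in Mito and 539 to 677 TPM (median 599.6) in NLS libraries, a difference of 0.38 ± 0.05 (adjusted p = 1.37e-07). Its 9 Mito libraries did not overlap the 9 NLS libraries. Mst87F, another sperm tail protein gene, differed by 0.30 ± 0.04 (adjusted p = 8.61e-08), Mst84Dc, a member of the same family, by 0.35 ± 0.05 (adjusted p = 4.24e-07), and dj (don juan), which encodes a protein of the sperm tail, by 0.31 ± 0.04 (adjusted p = 5.85e-07). Summed over the list, testis transcripts made up 19310, 17040 and 17960 TPM in Mito against 16320, 15470 and 15450 TPM in NLS libraries at 18 °C. At 25 °C the sums were 17550, 16870 and 16080 TPM in Mito and 13650, 13850 and 13480 TPM in NLS libraries. At 29 °C they were 21160, 21050 and 21050 TPM in Mito and 15640, 17260 and 16510 TPM in NLS libraries. The Mito and NLS sums did not overlap at any temperature. The means at 18, 25 and 29 °C were 18100, 16830 and 21090 TPM in Mito and 15750, 13660 and 16470 TPM in NLS libraries, against 18070, 18510 and 22370 TPM in w1118, which lay nearer to Mito at each temperature. At 1 copy, 28 of the 38 genes were higher in Mito flies and none lower, with a median of 0.16. The counts at single temperatures were 7 higher at 18 °C, where 6.67% of all genes were higher, 28 at 25 °C (13% of all genes) and 31 at 29 °C (21.3% of all genes). Without the 3 libraries named above the count at 18 °C was 2 and that at 29 °C was 20. In RNA of whole flies a larger testis and more of these transcripts per cell cannot be told apart.

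The testis markers used to check the tissue, 7 of 8 in the table and all members of that list, summed to 1833 to 2457 TPM in Mito and 1572 to 1993 TPM in NLS libraries, and the libraries of each temperature did not overlap. Over all temperatures together the summed markers of the testis and of every other organ overlapped between the strains. The other organs had 2176 to 3906 TPM in Mito and 2362 to 4005 TPM in NLS libraries for the accessory gland, 4694 to 8554 and 5129 to 8328 TPM for the eye, 1843 to 2982 and 1642 to 3091 TPM for muscle, 5786 to 9969 and 6012 to 9152 TPM for the gut, and 504.5 to 796.9 and 615.9 to 953.7 TPM for the fat body. Of 9 female markers, 6 stayed under 1 TPM in every Mito library and 5 in every NLS library, and their sums were 5.15 to 12.1 TPM in Mito and 6.92 to 15.6 TPM in NLS libraries. Within single temperatures some of these sums did not overlap. The female sums were lower in Mito at each temperature, at 5.15 to 6.55 TPM in Mito and 6.92 to 8.32 TPM in NLS libraries at 18 °C, 8.03 to 10.5 TPM in Mito and 12.3 to 14.3 TPM in NLS libraries at 25 °C, and 10.9 to 12.1 TPM in Mito and 12.7 to 15.6 TPM in NLS libraries at 29 °C. The fat body sums were lower in Mito at 18 °C (504.5 to 575.1 TPM in Mito and 615.9 to 636.2 TPM in NLS libraries) and at 25 °C (641.5 to 741.7 TPM in Mito and 777.8 to 901.5 TPM in NLS libraries). The eye sums were lower in Mito at 25 °C (5738 to 7147 TPM in Mito and 7314 to 7482 TPM in NLS libraries) and the gut sums at 29 °C (6834 to 7431 TPM in Mito and 7756 to 8861 TPM in NLS libraries). The muscle sums were higher in Mito at 29 °C (1943 to 2190 TPM in Mito and 1642 to 1889 TPM in NLS libraries). The part of these organs in the results that follow was not tested.

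Because the testis level moved with the strain, the fit was repeated, after the data had been seen, with the mean log2(TPM + 1) of the testis list in each library as a covariate. In it 1409 genes were called, 423 higher and 986 lower in Mito flies, and 1128 of them were also called with the same sign without the covariate. Standard errors grew 1.5-fold in the median gene. Genes called higher without the covariate had a median difference of 0.23 without and 0.02 with it, whereas genes called lower had medians of -0.17 without and -0.14 with it. Counts with this covariate are given below for each list whose members are counted. Over all 12555 genes 423 were called higher and 986 lower with it, against 3106 and 2833 without it. Each list count with the covariate is to be read beside these. The covariate is built from the testis list itself, whose own members are near 0 there by construction.

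**Figure D2:**
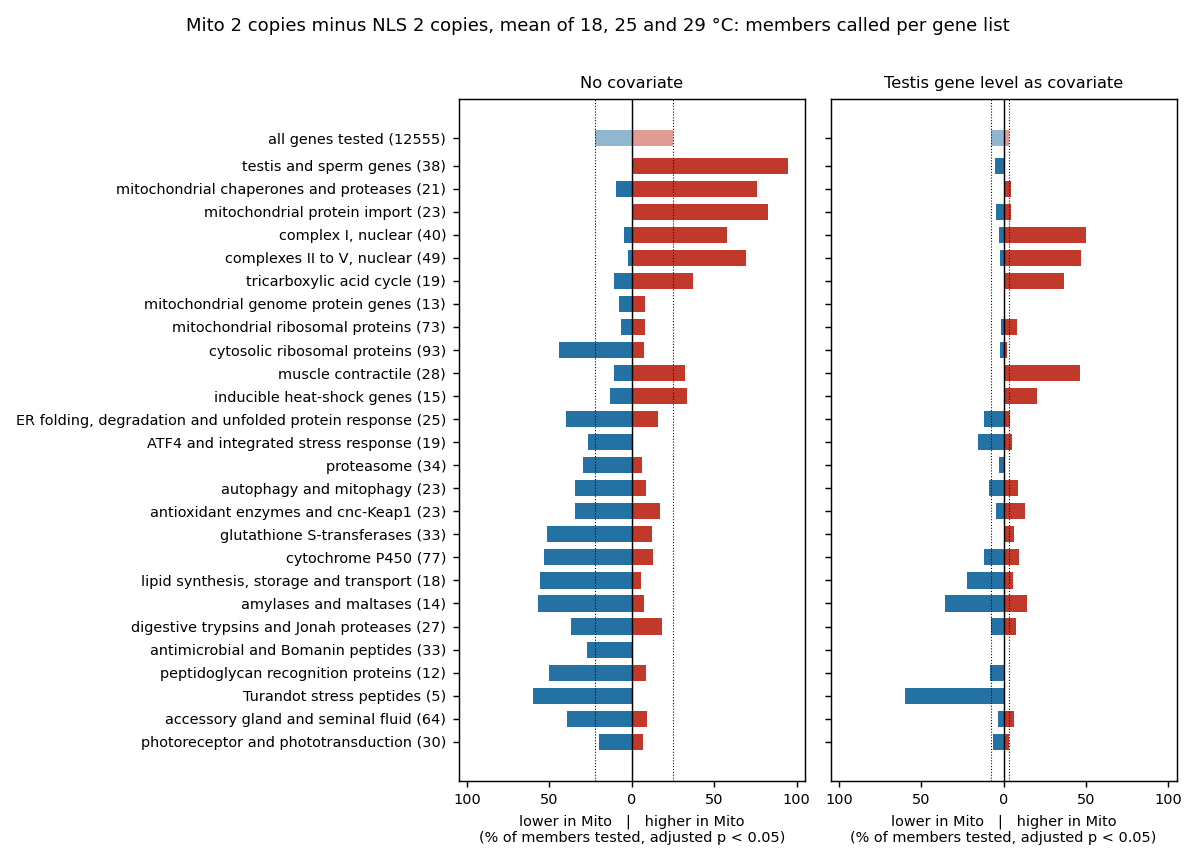
Bars show, for each list of genes named on the left, the percent of its tested members that were called lower (to the left of 0) or higher (to the right) in Mito than in NLS flies at 2 copies. The left panel is the fit without and the right panel the fit with the testis level as a covariate, and the top bar and dotted lines give the percents for all 12555 genes. The bars of the testis, import and mitochondrial chaperone lists reach far to the right in the left panel and are near 0 in the right panel, while those of complex I and complexes II to V stay to the right in both.

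The genes of mitochondrial protein quality control were mostly higher in Mito flies. Among 21 mitochondrial chaperones and proteases, 16 were higher and 2 lower (median 0.17). CG2658, which RefSeq names Spg7, a protease of the inner membrane that faces the matrix, was 34.4 to 46.4 TPM (median 39.9) in Mito and 30.6 to 36.1 TPM (median 33.8) in NLS libraries, a difference of 0.24 ± 0.03 (adjusted p = 1.89e-08). YME1L, the inner-membrane AAA protease that faces the intermembrane space, was 128 to 163 TPM (median 146) in Mito and 113 to 138 TPM (median 126) in NLS libraries, a difference of 0.21 ± 0.03 (adjusted p = 1.62e-06). The 3 YME1L libraries of each strain did not overlap at 18, 25 or 29 °C. Hsc70-5, the matrix Hsp70, differed by 0.12 ± 0.03 (adjusted p = 0.00155), and Trap1, the matrix Hsp90, by 0.09 ± 0.03 (adjusted p = 0.0108). Hsp60A, the general matrix chaperonin, was lower, with 171, 182 and 186 TPM in Mito and 240.5, 218 and 204 TPM in NLS libraries at 29 °C, where the difference was -0.29 ± 0.06 (adjusted p = 0.000245). At 18 °C it stood at 166, 163 and 177 TPM in Mito and 177, 171 and 157 TPM in NLS libraries, which overlapped. Its relatives Hsp60B, Hsp60C and Hsp60D, which are used in the male germ line, were higher by 0.29, 0.27 and 0.32. Lon, the matrix protease, gave 0.08 ± 0.03 (adjusted p = 0.055), and Pink1, the kinase that marks damaged mitochondria, 0.01 ± 0.03 (adjusted p = 0.792), neither past the threshold. Adding the testis covariate left 1 of the 21 genes higher and none lower, CG2658 at 0.15 (adjusted p = 0.00954), and YME1L was at 0.02 (adjusted p = 0.735).

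Protein import genes were also mostly higher in Mito flies. Of 23 genes for the translocases of the outer and inner membranes, 19 were higher in Mito flies and none lower (median 0.14). Tom70, an outer-membrane receptor for incoming proteins, was 125 to 177 TPM (median 143) in Mito and 109 to 139.7 TPM (median 127) in NLS libraries, a difference of 0.24 ± 0.04 (adjusted p = 2.41e-06). Tom40, the channel of the outer membrane, differed by 0.09 ± 0.03 (adjusted p = 0.0119). The 8 genes that are duplicates, many of them used mainly in the testis (tomboy20, tomboy40, ttm2, ttm3, Tim17a1, Tim17a2, Tim17b1 and Tim17b2, grouped after their values had been seen) had a median of 0.28 with 7 higher, and the other 15 a median of 0.10 with 12 higher. With quantile normalization 12 of the 23 genes were higher. Tim17b2 was 118 to 174 TPM (median 136) in Mito and 102 to 125 TPM (median 118) in NLS libraries, a difference of 0.31 ± 0.05 (adjusted p = 8.21e-07). With the testis covariate 1 import gene was higher and 1 lower, and Tom70 and Tim17b2 were at 0.00 (adjusted p = 0.994) and 0.04 (adjusted p = 0.603). At 1 copy 13 import genes and 10 of the chaperones and proteases were higher in Mito flies, and none of either list was lower.

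Nuclear genes for the respiratory chain were also more often higher than lower, with and without the covariate. Of 40 complex I genes (NADH dehydrogenase), 23 were higher and 2 lower (median 0.09), and of 49 genes for complexes II to V, 34 were higher and 1 lower (median 0.13). With the covariate the counts were 20 higher and 1 lower for complex I (median 0.15) and 23 higher and 1 lower for complexes II to V (median 0.15). ND-B17.2, an accessory subunit of complex I, was 344 to 619.8 TPM (median 526) in Mito and 320.0 to 556 TPM (median 423) in NLS libraries, which overlapped over all temperatures but not at any single one. It differed by 0.20 ± 0.03 (adjusted p = 1.05e-07), and by 0.28 (adjusted p = 1.18e-06) with the covariate. ND-42, another subunit, differed by 0.17 ± 0.03 (adjusted p = 3.94e-06), and by 0.19 (adjusted p = 0.00257) with the covariate. SdhD, a membrane anchor of complex II, differed by 0.18 ± 0.03 (adjusted p = 3.31e-05), and Idh3b, a subunit of the isocitrate dehydrogenase of the tricarboxylic acid cycle, by 0.23 ± 0.03 (adjusted p = 3.07e-09). Idh3b was at 0.18 (adjusted p = 0.00086) with the covariate.

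The respiratory lists hold 17 genes whose symbols end in L, which are duplicates of a subunit, many of them used mainly in the testis. Of these, 15 were higher and 2 lower (median 0.25), and with the covariate none was higher and 1 lower. ND-24L, such a copy of a complex I subunit, was 52 to 74.7 TPM (median 60.1) in Mito and 41.4 to 53.5 TPM (median 44.9) in NLS libraries, with a difference of 0.43 ± 0.05 (adjusted p = 3.59e-08) that was 0.13 (adjusted p = 0.128) with the covariate. ATPsynbetaL, a copy of the ATP synthase beta subunit, was 25.5 to 34.1 TPM (median 28.3) in Mito and 19.9 to 24.3 TPM (median 22.2) in NLS libraries, which did not overlap. Its difference was 0.36 ± 0.05 (adjusted p = 2.51e-07). Leaving the L copies out, a grouping made after the values were seen, 18 of 33 complex I genes were higher and none lower without the covariate, and 20 were higher and none lower with it. For complexes II to V without the L copies, 24 of 39 were higher and 1 lower without the covariate, and 23 higher and 1 lower with it.

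Most of the single-temperature calls of respiratory genes were at 25 °C. At that temperature 32 of the 49 genes for complexes II to V and 17 of the 40 complex I genes were higher in Mito flies (13% of all genes were). At 18 °C, where 6.67% of all genes were higher, the counts were 9 and 6, and without the NLS library of high antimicrobial peptides at that temperature and the 2 Mito libraries at 29 °C they were 1 and 2. At 29 °C, against 21.3% of all genes, they were 11 and 9, and without those libraries the count for complexes II to V was 6. For the tricarboxylic acid cycle 7 of 19 genes were higher and 2 lower (median 0.07) over all temperatures, and 10 were higher at 25 °C. Without replicate 1 of Mito at 29 °C, 11 were higher over all temperatures. CG5214, an enzyme gene of this list, was 272 to 328 TPM (median 309.6) in Mito and 236 to 268 TPM (median 259) in NLS libraries, and the 9 libraries of each strain did not overlap. It differed by 0.26 ± 0.03 (adjusted p = 1.03e-08), and l(1)G0156, which encodes another isocitrate dehydrogenase subunit, by 0.24 ± 0.03 (adjusted p = 2.13e-07). In contrast, of 73 mitochondrial ribosomal protein genes 6 were higher and 5 lower, and of 14 genes of the machinery that copies and transcribes the mitochondrial genome 1 was higher and 1 lower. Counts with the covariate were 7 higher and none lower for the tricarboxylic acid cycle, 6 higher and 1 lower for the mitochondrial ribosome and 1 higher and none lower for that machinery.

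Transcripts of the mitochondrial genome itself changed place between temperatures. The 13 protein genes summed to 96710, 95470 and 93510 TPM in Mito and 79550, 85430 and 82750 TPM in NLS libraries at 18 °C. At 25 °C they summed to 70600, 71230 and 79620 TPM in Mito and 78300, 75380 and 79590 TPM in NLS libraries. At 29 °C they summed to 67230, 64960 and 77360 TPM in Mito and 76350, 80890 and 85180 TPM in NLS libraries. Mito was above NLS without overlap at 18 °C, and the ranges overlapped at 25 and 29 °C. All w1118 libraries, at 43840 to 60900 TPM, lay below every Mito and NLS library. At 18 °C 4 of the 13 genes were higher in Mito flies and none lower (median 0.21), where 6.67% of all genes were higher. At 29 °C none was higher and 5 were lower (median -0.15), where 14.7% of all genes were lower. The change of the difference between 18 and 29 °C was negative and past the threshold in 7 of the 13 genes (2.4% of all genes). With quantile normalization it was so in 3 of the 13, while 2 were higher at 18 °C and 2 lower at 29 °C. mt:ND1, a complex I subunit, had 4927, 4453 and 4309 TPM in Mito and 3894, 4134 and 4209 TPM in NLS libraries at 18 °C, against 2868, 2607 and 2694 TPM in Mito and 3479, 3877 and 4038 TPM in NLS libraries at 29 °C. Its difference changed by -0.64 ± 0.15 (adjusted p = 0.00738). Without the 3 libraries of high antimicrobial peptides the calls for this change were lost, and fewer of the 13 genes were called at 18 and 29 °C. That fit keeps 1 Mito library at 29 °C, so the losses cannot be told apart from the effect of fewer libraries. Over the 3 temperatures 1 gene was higher and 1 lower, with quantile normalization 2 were higher and none lower, and with the covariate none was called.

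The secreted stress peptides of the Turandot family were among the lowest transcripts in Mito relative to NLS flies. These peptides are released into the blood after heat, infection and other stresses. TotX had 22.3, 18.5 and 20.1 TPM in Mito and 91.2, 63.6 and 91.1 TPM in NLS libraries at 18 °C, 29.2, 30.5 and 18.1 TPM in Mito and 116, 117 and 99.99 TPM in NLS libraries at 25 °C, and 6.09, 6.06 and 4.19 TPM in Mito and 26.4, 26.8 and 35.2 TPM in NLS libraries at 29 °C. Mito was below NLS without overlap at each temperature, and the mean difference was -2.09 ± 0.15 (adjusted p = 3.71e-14), a 4.27-fold lower level. In w1118 the gene stood at 30.3 to 64.8 TPM (median 43.5), between the 2 strains in the median. TotX lies at chromosome 3R, 20904917 to 20905518, and TotC at chromosome 3R, 20872988 to 20873580, of the BDGP6 genome build.

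TotC differed by -1.84 ± 0.37 (adjusted p = 6.93e-05), with 6.34 to 168 TPM (median 66.5) in Mito and 25.3 to 779.8 TPM (median 115) in NLS libraries. TotA differed by -0.99 ± 0.22 (adjusted p = 0.000307), with 52.5 to 541 TPM (median 250.3) in Mito and 94.7 to 1664 TPM (median 404) in NLS libraries. Both overlapped over all temperatures and did not overlap within any of them. TotM, on chromosome 2L, gave 0.38 ± 0.35 (adjusted p = 0.385) and did not pass. Summed over the 5 genes tested, the family had 740.6, 437.8 and 340.2 TPM in Mito and 2542, 1308 and 1725 TPM in NLS libraries at 18 °C. The sums were 434.8, 503.9 and 293.0 TPM in Mito and 753.2, 626.8 and 623.6 TPM in NLS libraries at 25 °C. They were 96, 69.3 and 75.2 TPM in Mito and 177.6, 149.7 and 189.6 TPM in NLS libraries at 29 °C. Both strains had their highest mean sum at 18 °C, at 506.2 TPM in Mito and 1858 TPM in NLS flies, where w1118 libraries had 186.6, 251.3 and 239.2 TPM. At 29 °C every w1118 library, at 186.4, 316.7 and 238.3 TPM, was above every Mito library. With the testis covariate the same 3 genes, TotX, TotC and TotA, were lower, by -2.08, -2.47 and -1.24.

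The largest single rises were in genes of varied roles. RabX2, a gene of the Rab family of vesicle GTPases (chromosome X, 10417429 to 10418219), had 7.20, 5.25 and 4.20 TPM in Mito and 0.611, 0.875 and 0.798 TPM in NLS libraries at 18 °C, and 8.79, 6.97 and 8.11 TPM in Mito and 2.04, 3.51 and 3.56 TPM in NLS libraries at 29 °C. All 9 Mito libraries were above all 9 NLS libraries, and w1118 stood at 0 to 0.292 TPM. The difference was 1.52 ± 0.10 (adjusted p = 4.78e-15), and 1.37 ± 0.10 (adjusted p = 1.62e-13) at 1 copy. Mis12, a protein of the kinetochore, through which chromosomes attach to the spindle, was 16.1 to 24.2 TPM (median 19.6) in Mito, 10.8 to 13.7 TPM (median 11.8) in NLS and 21.1 to 26.1 TPM (median 24) in w1118 libraries. It differed by 0.66 ± 0.06 (adjusted p = 1.63e-12) with no overlap over the 9 libraries a strain, and Kmn1, another kinetochore protein, by 0.64 ± 0.12 (adjusted p = 5.24e-05).

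hng3, with 8.14 to 11.2 TPM (median 8.99) in Mito, 3.58 to 5.90 TPM (median 4.64) in NLS and 12.1 to 15.9 TPM (median 15) in w1118 libraries, differed by 0.89 ± 0.07 (adjusted p = 4.53e-13). ea (easter), a serine protease of the embryonic dorsoventral pathway, had 8.51 to 11.9 TPM (median 10.0) in Mito, 4.54 to 7.27 TPM (median 6.46) in NLS and 12.1 to 17.1 TPM (median 13.1) in w1118 libraries and differed by 0.63 ± 0.07 (adjusted p = 4.60e-10). sti (sticky), the citron kinase of cytokinesis, had 4.54 to 7.28 TPM (median 5.33) in Mito, 2.70 to 4.17 TPM (median 3.43) in NLS and 2.98 to 4.77 TPM (median 3.73) in w1118 libraries and differed by 0.60 ± 0.06 (adjusted p = 5.36e-11). For these 3 genes the 9 Mito libraries did not overlap the 9 NLS libraries. Alp2, an alkaline phosphatase, differed by 0.85 ± 0.10 (adjusted p = 8.38e-09), the seminal fluid gene Sfp79B by 1.15 ± 0.27 (adjusted p = 0.000484), and betaNACtes3, a testis form of the nascent polypeptide complex, by 0.61 ± 0.11 (adjusted p = 1.57e-05). With the testis covariate RabX2, Mis12, hng3, ea and sti remained past the threshold, at 1.37, 0.62, 0.87, 0.69 and 0.45, while betaNACtes3 was at 0.32 (adjusted p = 0.204).

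The largest falls other than the Turandot genes included su(w[a]), the splicing factor suppressor of white-apricot (chromosome X, 1012779 to 1046040). It had 16.4 to 33.1 TPM (median 28.8) in Mito, 47.2 to 67.3 TPM (median 58) in NLS and 53.4 to 74.6 TPM (median 70.6) in w1118 libraries. The 9 Mito libraries were below all 9 NLS libraries, and the difference was -1.20 ± 0.07 (adjusted p = 7.34e-17). mRpL37, a protein of the large mitochondrial ribosomal subunit, was 19.8 to 24.9 TPM (median 22.9) in Mito, 27 to 56.9 TPM (median 43.7) in NLS and 19.4 to 24.6 TPM (median 21.5) in w1118 libraries, a difference of -0.91 ± 0.08 (adjusted p = 2.99e-12) with no overlap. Cyp4d20, a cytochrome P450, was 32.6 to 44.7 TPM (median 36.7) in Mito, 57.1 to 89.7 TPM (median 65.7) in NLS and 16.3 to 23.2 TPM (median 20.4) in w1118 libraries, a difference of -0.87 ± 0.05 (adjusted p = 5.31e-16), again with no overlap. mthl8, a receptor gene of the methuselah-like family, was 6.77 to 16.2 TPM (median 8.68) in Mito and 14.6 to 31.9 TPM (median 18.1) in NLS libraries and is listed at 0 in all 9 w1118 libraries. Its difference was -1.05 ± 0.08 (adjusted p = 1.01e-13). Lsp2, a storage protein of the fat body, differed by -0.87 ± 0.25 (adjusted p = 0.00374), with overlap at each temperature, and by -0.26 (adjusted p = 0.713) with the covariate.

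Of the genes known by a CG number, CG17192 and CG33926 had the largest rises by the naming rule. CG17192 was 17.7 to 71.7 TPM (median 34.6) in Mito and 3.60 to 19.8 TPM (median 9.09) in NLS libraries and differed by 1.92 ± 0.19 (adjusted p = 2.50e-10). CG33926 was 27.8 to 90.8 TPM (median 43) in Mito and 8.91 to 29.3 TPM (median 10.8) in NLS libraries and differed by 1.78 ± 0.22 (adjusted p = 3.00e-08). CG17751 differed by 1.33 ± 0.11 (adjusted p = 4.79e-13), and its strains did not overlap. The largest falls were in CG43954, at 2.39 to 4.19 TPM (median 3.02) in Mito and 7.35 to 13.2 TPM (median 9.22) in NLS libraries with a difference of -1.36 ± 0.11 (adjusted p = 4.04e-13), and in CG16775 at -1.22 ± 0.16 (adjusted p = 1.34e-07). CG32581 had 11.2 to 50.7 TPM (median 36.4) in Mito, 67.3 to 77.2 TPM (median 73.9) in NLS and 0 to 0.107 TPM in w1118 libraries, a difference of -1.16 ± 0.11 (adjusted p = 1.12e-10).

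**Figure D3:**
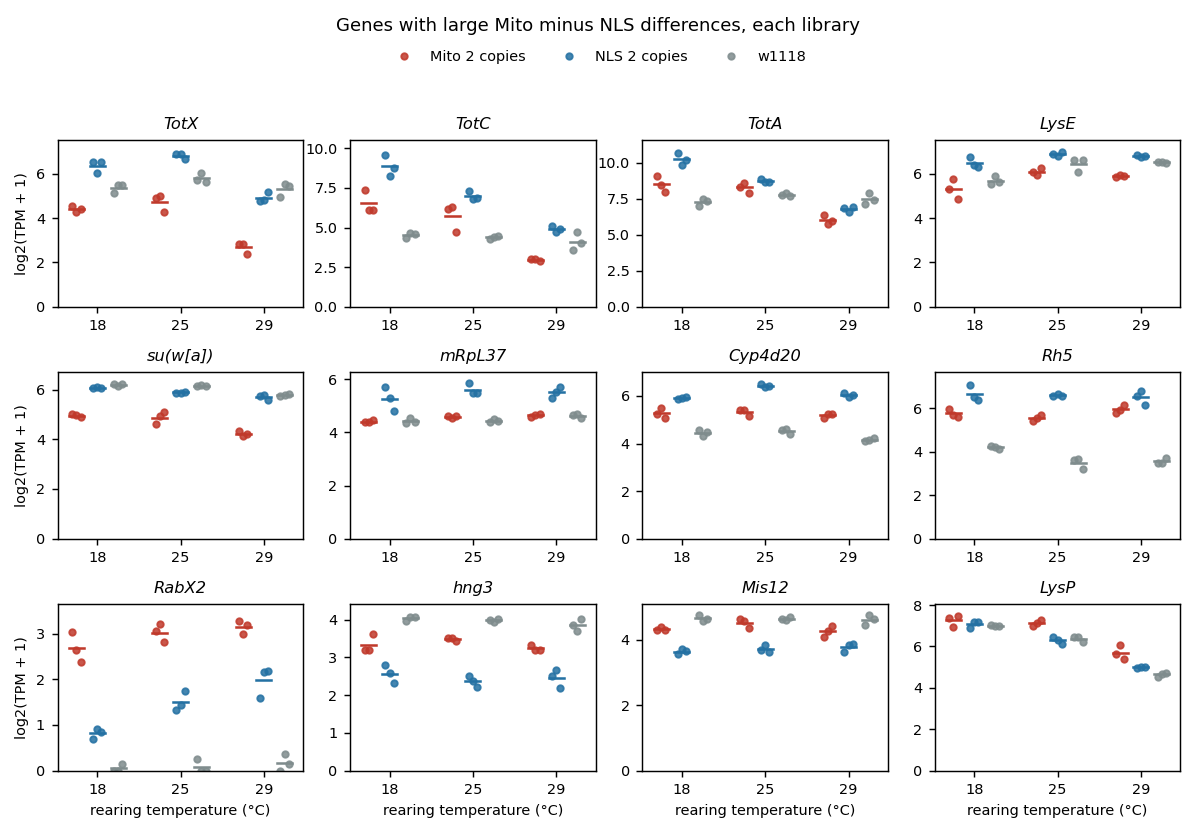
Each panel is 1 gene and each point 1 library, in log2(TPM + 1), at 18, 25 and 29 °C. Mito libraries (2 copies) are red, NLS libraries (2 copies) blue and w1118 libraries grey, and bars are means of 3 libraries. For su(w[a]), mRpL37, LysE, Cyp4d20, Rh5, RabX2, hng3 and Mis12 the red and blue points do not overlap over all temperatures, and RabX2 is near 0 in w1118.

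Genes of digestion moved in both directions. Among 5 lysozyme genes, which in flies are mostly expressed in the gut, 3 were higher and 2 lower in Mito flies. LysB was 22.5 to 117 TPM (median 66.8) in Mito, 4.75 to 66.9 TPM (median 23.2) in NLS and 173 to 597 TPM (median 427) in w1118 libraries, a difference of 1.43 ± 0.21 (adjusted p = 8.26e-07). LysE, its neighbour on 3L, was 28.4 to 76.8 TPM (median 58.4) in Mito, 77.8 to 127 TPM (median 109) in NLS and 45.6 to 97.7 TPM (median 88.2) in w1118 libraries, a difference of -0.95 ± 0.09 (adjusted p = 1.11e-10). The LysE libraries of the strains did not overlap, and those of LysB overlapped at 29 °C. LysB, LysD (1.18) and LysE have near-identical copies, between which the authors' counting could split reads, so the values of single copies are uncertain. With the covariate 3 lysozyme genes were higher and 1 lower.

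Of 27 digestive trypsins and Jonah proteases, 5 were higher and 10 lower, and 2 were higher when replicate 3 of NLS at 18 or 29 °C or replicate 3 of Mito at 25 °C was left out, and also without the 3 libraries of high antimicrobial peptides. With the testis covariate 2 were higher and 2 lower, and zetaTry was at -0.18 (adjusted p = 0.172). Jon66Ci was 0.468 to 12.2 TPM (median 3.10) in Mito and 2.60 to 47.8 TPM (median 13.2) in NLS libraries, a difference of -1.79 ± 0.22 (adjusted p = 2.96e-08), and zetaTry and lambdaTry fell by 0.36 and 0.31. lambdaTry stood at 95.7 to 126 TPM (median 105) in Mito and 114 to 161 TPM (median 125) in NLS libraries, against 0 to 0.654 TPM in w1118. Jon25Bii, Jon25Bi and Jon99Cii were higher by 0.58, 0.50 and 0.46. Npc1b, which takes up dietary sterol in the midgut, was 1.84 to 10.1 TPM (median 6.47) in Mito and 4.24 to 26.5 TPM (median 13.1) in NLS libraries, a difference of -1.11 ± 0.10 (adjusted p = 4.24e-11) with no overlap within any temperature. Npc2e, of the related secreted sterol-binding family, differed by -1.56 ± 0.29 (adjusted p = 2.36e-05), and by -1.31 (adjusted p = 0.0508) with the covariate.

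Of 14 amylases and maltases, 8 were lower and 1 higher (median -0.24). tobi, an alpha-glucosidase gene, had 219, 236 and 249 TPM in Mito and 435, 496 and 742 TPM in NLS libraries at 18 °C, 142, 159.5 and 184 TPM in Mito and 487, 585 and 344 TPM in NLS libraries at 25 °C, and 347, 325 and 275 TPM in Mito and 267, 256 and 245 TPM in NLS libraries at 29 °C. Mito was below NLS without overlap at 18 and 25 °C and above it at 29 °C, where the difference of 0.30 ± 0.22 (adjusted p = 0.305) did not pass. The naming rule for 25 °C, which named tobi, required the lack of overlap there. w1118 libraries were at 0.147 to 0.440 TPM. Mal-A7 was 211 to 343 TPM (median 274) in Mito and 352 to 438 TPM (median 372) in NLS libraries, with no overlap and a difference of -0.48 ± 0.05 (adjusted p = 1.88e-10), and Mal-A1 differed by -0.37 ± 0.04 (adjusted p = 5.78e-10), while Mal-A5 was higher by 0.37 ± 0.03 (adjusted p = 3.09e-12). Under the testis covariate 5 members were lower and 2 higher.

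Over the 3 temperatures together, more detoxification and lipid genes were lower than higher in Mito flies. Of 77 cytochrome P450 genes, 41 were lower and 10 higher (median -0.12), and with the testis covariate 9 were lower and 7 higher. Without replicate 2 of NLS at 29 °C, or without the 3 libraries of high antimicrobial peptides, 6 were higher. Cyp4g1, the P450 that makes cuticular hydrocarbons in oenocytes, was 9354 to 13340 TPM (median 12250) in Mito and 10850 to 18400 TPM (median 16170) in NLS libraries. Its strains did not overlap within any temperature, and it differed by -0.38 ± 0.03 (adjusted p = 1.21e-11) and by -0.31 (adjusted p = 4.45e-05) with the covariate. Of 33 glutathione S-transferases 17 were lower and 4 higher (median -0.13), beside 22.6% and 24.7% of all genes. At 29 °C 7 were lower and 6 higher, beside 14.7% and 21.3% of all genes. Fewer were called in either direction at 29 °C without the 3 libraries of high antimicrobial peptides. GstD1, an enzyme that acts on insecticides and peroxides, fell by 0.18, to 678 to 1045 TPM (median 752) in Mito against 712 to 1218 TPM (median 879) in NLS libraries, and GstE9 fell by 0.24. GstS1, which is abundant in muscle, was higher by 0.20 ± 0.03 (adjusted p = 1.66e-06). With the covariate no glutathione S-transferase was lower and 2 were higher.

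Of 18 genes of lipid synthesis, storage and transport 10 were lower and 1 was higher (median -0.14), and at 1 copy 13 were lower and none higher. At 25 °C 10 were lower and none higher, beside 11.1% and 13% of all genes. At 29 °C 5 were lower and 6 higher, beside 14.7% and 21.3% of all genes. apolpp, the precursor of the main lipid carrier of the blood, was 163 to 295 TPM (median 197) in Mito and 214 to 368 TPM (median 272) in NLS libraries and differed by -0.34 ± 0.04 (adjusted p = 1.08e-08). FASN2, a fatty acid synthase, differed by -0.30 ± 0.04 (adjusted p = 6.92e-07), and AcCoAS, which makes acetyl-CoA, by -0.24 ± 0.03 (adjusted p = 6.74e-08). In the fit holding the testis covariate the count was 4 lower and 1 higher, with apolpp at -0.33 (adjusted p = 0.000297).

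Heat-shock genes differed in both directions. Of 15 inducible heat-shock genes, 5 were higher and 2 lower (median 0.04), beside 24.7% and 22.6% of all genes. Fewer were called without the 3 libraries of high antimicrobial peptides. With the covariate 3 were higher and none lower. Hsp22, a small chaperone of the mitochondrial matrix, had 28.3, 32.4 and 38 TPM in Mito and 23.4, 22.8 and 25 TPM in NLS libraries at 18 °C and 654, 855 and 708 TPM in Mito and 548, 465 and 422 TPM in NLS libraries at 29 °C. Mito was above NLS without overlap at all temperatures, and the difference was 0.54 ± 0.14 (adjusted p = 0.00116), and 0.94 (adjusted p = 0.00115) with the covariate. In w1118 it was 10.8 to 81.7 TPM (median 30.2). Hsp27, a small chaperone found in the nucleus, was 73.9 to 83 TPM (median 78.8) in Mito and 64 to 72.9 TPM (median 68.3) in NLS libraries, without overlap, and differed by 0.20 ± 0.04 (adjusted p = 9.07e-05), and by 0.12 (adjusted p = 0.219) with the covariate. DnaJ-1, the main cochaperone of the heat-shock response, differed by 0.20 ± 0.03 (adjusted p = 3.20e-08), and Hsp83, the fly Hsp90, gave 0.01 ± 0.03 (adjusted p = 0.743) and did not pass.

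Hsp70Ab, an inducible Hsp70 with near-identical copies, had 10.4, 9.84 and 11 TPM in Mito and 9.13, 8.35 and 8.71 TPM in NLS libraries at 18 °C, and 5.89, 5.03 and 8.75 TPM in Mito and 24.6, 13.9 and 22 TPM in NLS libraries at 29 °C. Mito lay a little above NLS at 18 °C, where the difference did not pass, and below NLS without overlap at 29 °C, where the difference was -1.48 ± 0.21 (adjusted p = 1.15e-06). The difference changed between 18 and 29 °C by -1.71 ± 0.30 (adjusted p = 0.000186). Without the 3 libraries of high antimicrobial peptides, which leaves 1 Mito library at 29 °C, the change was -1.31. At 29 °C 5 of the 15 genes were lower and 2 higher, beside 14.7% and 21.3% of all genes, and fewer were called without those libraries.

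Among 25 genes of folding and degradation in the endoplasmic reticulum 10 were lower and 4 higher (median -0.05), beside 22.6% and 24.7% of all genes. Calr (calreticulin), a calcium-binding chaperone, was 422 to 592 TPM (median 448) in Mito and 467 to 688 TPM (median 543) in NLS libraries and differed by -0.21 ± 0.02 (adjusted p = 1.50e-08). Hsc70-3, the BiP chaperone, differed by -0.16 ± 0.03 (adjusted p = 0.000136), and Ero1L, which oxidises new disulfides, was higher by 0.19 ± 0.03 (adjusted p = 4.80e-07). Of 19 genes of the integrated stress response 5 were lower and none higher, beside 22.6% and 24.7% of all genes. Without replicate 3 of Mito at 18 °C 8 were lower. In this list crc, the fly ATF4, was at -0.09 ± 0.02 (adjusted p = 0.00034). ref(2)P, the fly p62 adaptor of autophagy, was 231 to 292 TPM (median 269.7) in Mito and 277 to 342 TPM (median 325) in NLS libraries and differed by -0.25 ± 0.03 (adjusted p = 2.57e-09). Of 34 proteasome genes 10 were lower and 2 higher, beside 22.6% and 24.7% of all genes. Prosalpha4 was at -0.29 ± 0.03 (adjusted p = 9.52e-09) and the testis paralogue Rpn12R at 0.30 ± 0.04 (adjusted p = 7.51e-07). With the covariate 1 proteasome gene was lower and none higher, and 3 genes of the endoplasmic reticulum list were lower and 1 was higher. For the integrated stress response 3 were lower and 1 higher with it, and crc was at -0.03 (adjusted p = 0.579).

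Cytosolic ribosomal protein genes were slightly lower, with 41 of 93 lower and 7 higher (median -0.07), and 25 lower without replicate 3 of NLS at 25 °C and 26 without replicate 3 of Mito at 29 °C. RpL5 was 442 to 705 TPM (median 616) in Mito and 472 to 771 TPM (median 750.2) in NLS libraries, a difference of -0.18 ± 0.03 (adjusted p = 3.18e-07). The 7 that were higher were RpL10Aa, RpL22-like, RpL37b, RpS19b, RpS28a, RpS5b and RpS10a, duplicates of ribosomal proteins with a median of 0.33. RpS19b was 64.2 to 73.9 TPM (median 67.3) in Mito and 47.3 to 59.8 TPM (median 54.9) in NLS libraries, which did not overlap. With the covariate 2 of the 93 genes were higher and 2 lower. At single temperatures none was lower at 18 °C, 2 at 25 °C and 30 at 29 °C, beside 6.95%, 11.1% and 14.7% of all genes.

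In the eye, opsins moved in opposite directions. Rh5 and Rh6, the blue- and green-sensitive opsins of the R8 photoreceptors, are made by alternative kinds of R8 cell. Rh5 was 41.6 to 68.9 TPM (median 51.3) in Mito, 71 to 132 TPM (median 93.7) in NLS and 8.29 to 18.4 TPM (median 11.7) in w1118 libraries, and no Mito library reached the lowest NLS library. It differed by -0.83 ± 0.09 (adjusted p = 2.11e-09). Rh6 was 46.4 to 167 TPM (median 101) in Mito, 20.2 to 105 TPM (median 68.3) in NLS and 99.6 to 227 TPM (median 166) in w1118 libraries and differed by 0.68 ± 0.10 (adjusted p = 5.02e-07), with overlap at 18 °C but not at 25 or 29 °C. At 1 copy the differences were -0.77 ± 0.09 (adjusted p = 2.19e-08) for Rh5 and 0.43 ± 0.10 (adjusted p = 0.00105) for Rh6. In both genes Mito flies lay nearer to w1118 than NLS flies did. Of the 30 photoreceptor genes 2 were higher and 6 lower (10 lower without replicate 3 of NLS at 29 °C), and ninaD, a receptor that takes up the carotenoids from which visual pigment is made, differed by -0.61 ± 0.07 (adjusted p = 3.85e-09). With the covariate 1 photoreceptor gene was higher and 2 were lower.

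Of 64 accessory gland and seminal fluid genes 25 were lower and 6 higher (median -0.09), and 16 were lower without replicate 3 of Mito at 18 °C and 11 without the 3 libraries of high antimicrobial peptides. With the testis covariate 2 were lower and 4 higher. Without it, single members included Acp53C14a at -0.28 ± 0.05 (adjusted p = 1.34e-05) and Sfp93F at 0.43 ± 0.04 (adjusted p = 4.60e-10). At 29 °C 26 were lower and 4 higher, beside 14.7% and 21.3% of all genes. Nearly all of the calls of lower genes were lost without the 2 Mito libraries of high antimicrobial peptides at that temperature and the NLS library at 18 °C. As 1 Mito library was left at 29 °C, these losses cannot be told apart from the effect of fewer libraries. Of 28 contractile muscle genes 9 were higher and 3 lower (median 0.04). Act79B, a muscle actin, differed by 0.28 ± 0.05 (adjusted p = 1.09e-05). With the covariate 13 muscle genes were higher and none lower. Lists for the nucleus, where the NLS protein is directed, were also counted. Of 24 genes of nuclear import, export and the lamina 3 were higher and 4 lower, of 22 genes of DNA damage response and repair 2 were higher and 6 lower (none higher and 3 lower without the 3 libraries of high antimicrobial peptides), and of 16 histone and chromatin genes 3 were higher and 2 lower. With the covariate none was higher and 5 lower for import, export and the lamina, none higher and 3 lower for repair, and 1 higher and none lower for chromatin. Xrp1, a transcription factor induced by DNA damage and proteotoxic stress, was 182 to 242 TPM (median 213) in Mito and 194 to 315 TPM (median 266) in NLS libraries and differed by -0.23 ± 0.03 (adjusted p = 6.03e-09), and Pen, an importin alpha, was higher by 0.26 ± 0.05 (adjusted p = 1.42e-05), which was -0.04 (adjusted p = 0.463) with the covariate.

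Antimicrobial peptide genes, which are induced by infection, spread widely between libraries of a group. Dro (drosocin) had 0.319, 1.87 and 1.18 TPM in Mito and 3.42, 24.4 and 847 TPM in NLS libraries at 18 °C. At 25 °C it had 3.83, 1.67 and 3.58 TPM in Mito and 11.5, 7.83 and 12.9 TPM in NLS libraries, and at 29 °C 531, 96.2 and 5.67 TPM in Mito and 13.5, 15.9 and 20.0 TPM in NLS libraries. The third NLS library at 18 °C and the first 2 Mito libraries at 29 °C were far above the rest. DptA (diptericin) had 1.78, 19.3 and 12.6 TPM in Mito and 27.1, 80.0 and 2811 TPM in NLS libraries at 18 °C, and 1210, 997 and 78.4 TPM in Mito and 183, 75.8 and 196 TPM in NLS libraries at 29 °C. The same 3 libraries were the high ones. At 18 °C 18 of the 33 peptides were lower in Mito flies and none higher (6.95% of all genes were lower). At 29 °C 3 were higher and 2 lower, beside 21.3% and 14.7% of all genes. Without those 3 libraries the counts were 5 lower at 18 °C, and none higher and 1 lower at 29 °C.

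The change of the difference between 18 and 29 °C passed in 14 of the 33 peptides, all towards higher in Mito (2.88% of all genes), and in none without the 3 libraries. Dro changed by 6.52 ± 1.98 (adjusted p = 0.0419), edin, which is raised during infection, by 6.15 ± 1.36 (adjusted p = 0.00351), AttA by 4.78 ± 1.38 (adjusted p = 0.0311) and AttB by 4.23 ± 1.11 (adjusted p = 0.0156). With the compared libraries alone none of the 4 changes passed (adjusted p = 0.112 to 0.186). Without the 3 libraries, with 1 Mito library left at 29 °C, the changes were 1.02, 1.80, 1.12 and 1.39. Over the 3 temperatures 9 of the 33 peptides were lower and none higher (median -0.28), beside 22.6% and 24.7% of all genes. The count of lower peptides was 14 without replicate 1 of Mito at 29 °C or without replicate 1 of NLS at 18 °C. Drsl4, of the drosomycin family, was 75.5 to 459 TPM (median 163) in Mito, 112 to 519 TPM (median 298) in NLS and 688 to 1387 TPM (median 1137) in w1118 libraries and differed by -0.78 ± 0.14 (adjusted p = 9.87e-06), and IM33 differed by -0.24 ± 0.05 (adjusted p = 0.000231). With the testis covariate none of the 33 passed, Drsl4 being at -0.61 (adjusted p = 0.0512). Of 12 peptidoglycan recognition proteins, the sensors of bacterial cell wall, 6 were lower and 1 higher, the membrane receptor PGRP-LC at -0.21 ± 0.03 (adjusted p = 2.01e-07) and PGRP-LB, an enzyme that degrades peptidoglycan, at -0.40 ± 0.08 (adjusted p = 0.000124). With the covariate 1 of the 12 was lower and none higher, and PGRP-LB was at -0.26 (adjusted p = 0.197).

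**Figure D4:**
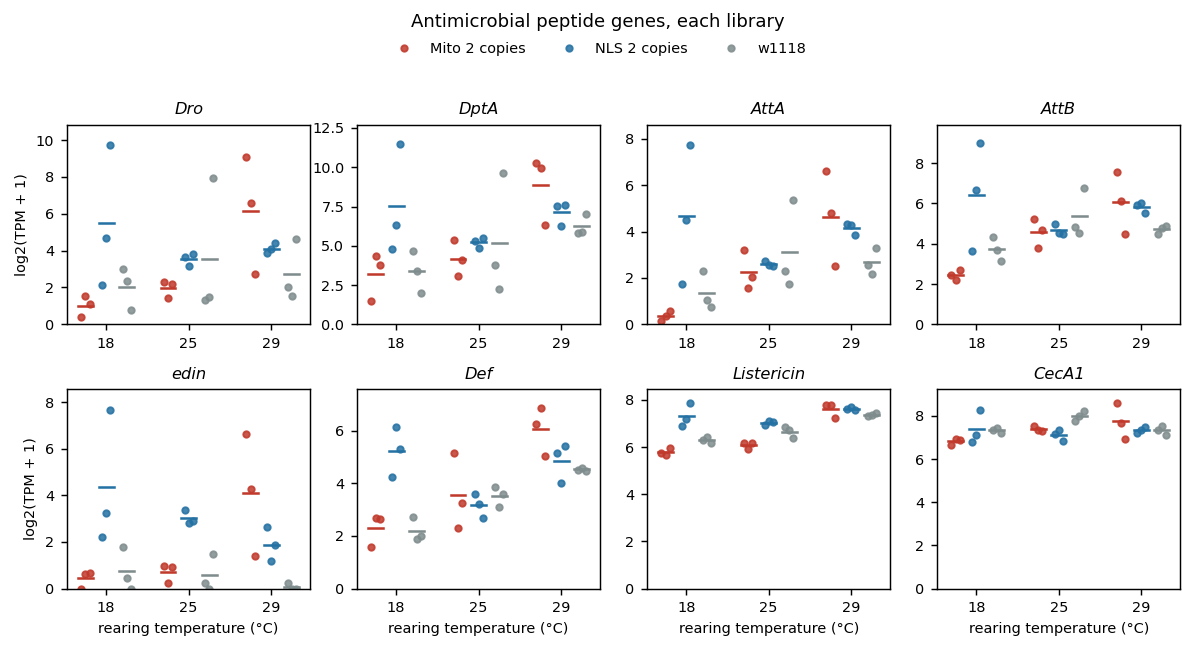
Each panel is 1 immune gene and each point 1 library, in log2(TPM + 1), at 18, 25 and 29 °C, with Mito (2 copies) red, NLS (2 copies) blue, w1118 grey and bars at the means of 3 libraries. For Dro, DptA, AttA, AttB and edin 1 blue point at 18 °C and 2 red points at 29 °C lie above the other libraries of their group.

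The number of genes called differed between rearing temperatures and, for some genes, so did the direction. At 18 °C 1710 genes (13.6%) were called, 838 higher and 872 lower, at 25 °C 3027 (24.1%), 1628 higher and 1399 lower, and at 29 °C 4525 (36%), 2677 higher and 1848 lower. The change of the difference between 18 and 29 °C passed in 662 genes (5.27%). In 476 of these the differences at 18 and 29 °C had opposite signs, and 46 were called at both temperatures with opposite signs. Leaving out 1 library at a time gave 684 to 1900 genes at 18 °C, 1635 to 2801 at 25 °C and 3408 to 4207 at 29 °C. Without the 3 libraries named above fewer genes were called at 18 °C, at 29 °C and for the change. As 2 of those were Mito libraries at 29 °C, that fit cannot compare counts between temperatures.

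Cyp6a8, a P450 of the family linked to insecticide resistance, had 6.58, 6.82 and 7.19 TPM in Mito and 10.6, 10.5 and 11 TPM in NLS libraries at 18 °C, and 25.5, 40.8 and 29.2 TPM in Mito and 8.14, 9.35 and 9.79 TPM in NLS libraries at 29 °C. Mito was below NLS at 18 °C and above it at 29 °C, without overlap at either. The lack of overlap at 29 °C was required by the rule that named the gene. Its difference changed by 2.25 ± 0.21 (adjusted p = 1.42e-09). Among all 77 P450 genes 13 changed towards higher in Mito and 3 towards lower between 18 and 29 °C, beside 2.88% and 2.4% of all genes. Fewer changed towards higher without the 3 libraries.

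mag (magro), a lipase that acts on dietary fat and sterol esters, had 107, 123 and 109 TPM in Mito and 112, 108 and 99.6 TPM in NLS libraries at 18 °C, and 50.9, 59.1 and 60.2 TPM in Mito and 154, 160.2 and 140.5 TPM in NLS libraries at 29 °C. It overlapped at 18 °C, was lower in Mito flies at 29 °C by -1.40 ± 0.10 (adjusted p = 4.16e-14), and changed by -1.49 ± 0.14 (adjusted p = 1.42e-09). Jon65Aii, a Jonah protease, had 32.6, 31.6 and 26.2 TPM in Mito and 16.6, 16.3 and 14.1 TPM in NLS libraries at 18 °C, against 22.2, 26.6 and 25.3 TPM in Mito and 56.6, 54.5 and 48.8 TPM in NLS libraries at 29 °C. It was higher in Mito flies at 18 °C by 0.90 ± 0.18 (adjusted p = 0.000685) and lower at 29 °C by -1.08 ± 0.18 (adjusted p = 1.54e-05), with no overlap at either temperature. The naming rule for 18 °C, which also named this gene, required the lack of overlap there. LManIV, a lysosomal alpha-mannosidase, changed by -1.91 ± 0.37 (adjusted p = 0.000656), and by -1.51 without the 3 libraries, with 1 Mito library left at 29 °C. Of the 27 trypsins and Jonah proteases none was higher and 10 lower at 29 °C, beside 21.3% and 14.7% of all genes. At 18 °C 3 were higher and 4 lower, beside 6.67% and 6.95% of all genes. The change was towards lower in 6 (2.4% of all genes), and in fewer without the 3 libraries.

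At 29 °C the largest differences by the naming rule were in Cyp6a8, Act88F and Cyp12d1-p, which were higher, and in Jhe, BG642312 and LManIV, which were lower. Act88F, the actin of the indirect flight muscle, had 219, 194 and 139 TPM in Mito and 96.1, 72.6 and 95.7 TPM in NLS libraries, a difference of 1.04 ± 0.22 (adjusted p = 0.000279). Without the 3 libraries, with 1 Mito library left at 29 °C, it was 0.67. Jhe, the juvenile hormone esterase, had 0.946, 0.554 and 1.20 TPM in Mito and 3.87, 6.05 and 5.51 TPM in NLS libraries, a difference of -1.69 ± 0.17 (adjusted p = 4.44e-10). Neither gene overlapped between the strains at that temperature, which the naming rule required. At 25 °C Obp99b, an odorant-binding protein, had 1460, 1316 and 1023 TPM in Mito and 606, 734 and 577 TPM in NLS libraries, a difference of 0.98 ± 0.18 (adjusted p = 0.000113), and Try29F, a trypsin gene, 6.16, 7.33 and 5.85 TPM in Mito and 18, 15.6 and 26.1 TPM in NLS libraries, a difference of -1.46 ± 0.19 (adjusted p = 4.63e-07). At 18 °C Sdic3, of a sperm dynein gene cluster with near-identical copies, had 65.7, 52.7 and 59.7 TPM in Mito and 44.7, 37.7 and 20.0 TPM in NLS libraries, a difference of 0.85 ± 0.18 (adjusted p = 0.00153). Sdic3 did not pass with the compared libraries alone (0.85, adjusted p = 0.0635) or with the testis covariate (0.61, adjusted p = 0.0557).

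**Figure D5:**
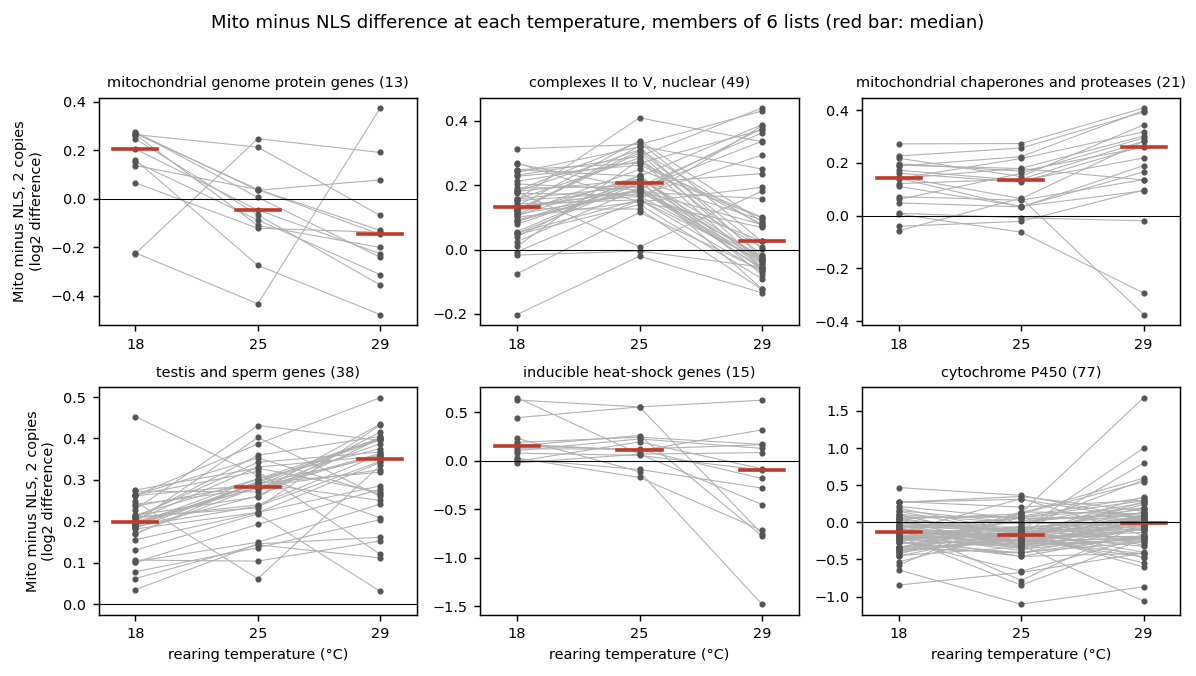
Each panel is 1 list of genes, each thin line 1 gene and each red bar the median of the list. The horizontal axis is the rearing temperature (18, 25 and 29 °C) and the vertical axis the Mito minus NLS difference at 2 copies in log2(TPM + 1). The medians of the 13 genes of the mitochondrial genome are 0.21 at 18 °C and -0.15 at 29 °C, while the 38 testis and sperm genes stay above 0 at 0.20, 0.28 and 0.35.

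The difference between the strains itself differed between 2 copies and 1 copy in 297 genes (2.37%), towards higher in Mito at 2 copies in 83 (0.661%) and towards lower in 214 (1.7%). Of these genes 257 were also called in the 2-copy comparison, which shares its 2-copy libraries with this test. In 119 of the 257 the difference had the same sign at both copy numbers and was larger in size at 2 copies, in 2 it had the same sign and was smaller at 2 copies, and in 136 it had opposite signs. Listericin, an antibacterial peptide gene, had 50.01 to 221 TPM (median 71.2) in Mito and 118 to 231 TPM (median 144) in NLS libraries at 2 copies and 73.5 to 229 TPM (median 98.2) in Mito and 89 to 169 TPM (median 139) in NLS libraries at 1 copy. Its difference was -0.83 ± 0.12 (adjusted p = 6.18e-07) at 2 copies and -0.16 ± 0.12 (adjusted p = 0.329) at 1 copy, and the change was -0.67 ± 0.17 (adjusted p = 0.0272), which did not pass without replicate 3 of NLS at 18 °C (-0.58, adjusted p = 0.0521), with the compared libraries alone (-0.67, adjusted p = 0.0642) or with the testis covariate (-0.57, adjusted p = 0.0955). Amnionless, an endocytic receptor gene of nephrocytes, was lower in Mito flies at 2 copies by -0.35 ± 0.09 (adjusted p = 0.00155) and stood at 0.26 ± 0.09 (adjusted p = 0.0249) at 1 copy, a change of -0.61 ± 0.13 (adjusted p = 0.00631).

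Lsp1beta, a larval storage protein, gave -0.40 at 2 copies and 0.39 at 1 copy, a change of -0.80 ± 0.20 (adjusted p = 0.0225) that was -0.70 (adjusted p = 0.0727) with the covariate, and Cpr47Ef, a cuticle protein, -0.44 and 0.10, a change of -0.55 ± 0.15 (adjusted p = 0.038) that did not pass in 16 of the 36 fits leaving out 1 library. Towards higher, Sfp70A4, a seminal fluid gene, changed by 0.49 ± 0.10 (adjusted p = 0.00565), LRR by 0.35 ± 0.05 (adjusted p = 7.77e-05), Pif2 by 0.32 ± 0.09 (adjusted p = 0.0373), which did not pass in 15 of those 36 fits or with the covariate (0.19, adjusted p = 0.137), and mino, an acyltransferase of glycerolipid synthesis, by 0.30 ± 0.05 (adjusted p = 0.00114). LRR was 19.8 to 26.3 TPM (median 22.3) in Mito and 20.8 to 24.7 TPM (median 23.4) in NLS libraries at 2 copies, against 20.7 to 25.6 TPM (median 23.3) in Mito and 25.9 to 37.1 TPM (median 30.1) in NLS libraries at 1 copy. It overlapped at 2 copies, and all 9 Mito libraries were below all 9 NLS libraries at 1 copy.

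By chromosome, 28 of the 79 genes tested on the small chromosome 4 (35.4%) were lower and 6 higher in Mito flies, beside 22.6% and 24.7% of all genes. At 1 copy 7 were lower and 8 higher, and with the testis covariate 13 were lower and 3 higher. On the X, 2L, 2R, 3L and 3R arms 45.3% to 50.1% of the genes were called. Of 18 genes tested on the Y chromosome, which is active in the male germ line, 6 were higher and none lower, and with the covariate none was called. apolpp, described above, lies on chromosome 4.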

How the data were processed

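The authors deposited 1 table of TPM, with 13926 gene symbols down and 54 libraries across, and it held 0 columns of other samples. Per the labels' protocols, RNA was extracted with TRIzol from whole flies and libraries were made with the TruSeq RNA v2 kit, which does not mark strand, so overlapping genes cannot be told apart. The submitters' processing notes name the builds BDGP6 and dm6. Neither aligner nor counting program is given in the sources used here, and each library's depth is unknown, so no counting interval was computed. Symbols were matched to the BDGP6 annotation and RefSeq names, 12783 by symbol, 1111 by synonym and 32 not at all. There were 71 genes at 0 in every library.

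A gene was tested if 3 or more libraries reached 1 TPM (12555 genes). In R 4.3.3, limma 3.58.1 estimated the mean log2(TPM + 1) of each of 18 groups of 3 from the 54 libraries together, with an intensity trend and 36 residual degrees of freedom. Tests were two-sided, with Benjamini-Hochberg adjustment inside each comparison. The fit was tested on simulated data. The comparisons were the mean of the 3 differences, each temperature, the change between 18 and 29 °C, and the 2-copy difference less the 1-copy difference. Replicate numbers did not pair libraries (r of residuals -0.128 to 0.139 in 9 pairs of the same number and temperature).

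Genes named are w; the 12 and 12 largest differences past the threshold with 1 sign at all temperatures, a mean of 5 TPM in either strain and a named symbol; 4 and 4 among CG or CR numbers; 3 and 3 at each temperature without overlap; 4 and 4 for each change; and up to 4 members of each of 39 lists with the smallest adjusted p. Other genes named (Hsp60A, Hsp60C, Hsc70-5, Trap1, Lon, Pink1, Tom40, Hsp83, TotM, Jon25Bi and Jon25Bii, and the duplicates of mitochondrial and ribosomal genes) were chosen for their roles after their values were seen. The lists and comparisons were chosen with earlier results of these data known, and no list was tested as a set. The testis covariate and the fit without 3 libraries were added after the data were seen. Other fits used a pseudocount of 0.1, no filter, quantile normalization, median-ratio size factors, a replicate block, the compared libraries alone, or left out each library in turn. No sequences were used.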

Additional observations from a re-analysis of the deposited data

Results flagged for a closer look

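The Mito minus NLS difference at 2 copies changed between 18 and 29 °C, by the test of the change itself (limma, log2 scale), in 8 genes named by the rule. The change was 6.52 in Dro, 6.15 in edin, 4.78 in AttA and 4.23 in AttB, immune genes that were high in 2 Mito libraries at 29 °C and 1 NLS library at 18 °C. Without those 3 libraries, which leaves 1 Mito library at 29 °C, it was 1.02, 1.80, 1.12 and 1.39. With the compared libraries alone none of the 4 passed.

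The change was -1.98 in Jon65Aii and -1.49 in mag, and both passed in all the alternative fits run. It was -1.91 in LManIV and -1.71 in Hsp70Ab. Without those 3 libraries, with 1 Mito library left at 29 °C, it was -1.51 and -1.31.

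The difference between the strains differed between 2 copies and 1 copy, by the test of that change, in 8 genes named by the rule. It was higher at 2 copies by 0.49 in Sfp70A4, 0.35 in LRR, 0.32 in Pif2 and 0.30 in mino. It was lower by -0.80 in Lsp1beta, -0.67 in Listericin, -0.61 in Amnionless and -0.55 in Cpr47Ef. Pif2 and Cpr47Ef did not pass without the 3 libraries of high antimicrobial peptides (adjusted p = 0.082 and 0.077). Under the testis covariate Pif2 was at 0.19 (adjusted p = 0.137), Lsp1beta at -0.70 (adjusted p = 0.0727) and Listericin at -0.57 (adjusted p = 0.0955), and Listericin also did not pass with the compared libraries alone (adjusted p = 0.0642).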

How the results depend on the processing

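The count of 5939 genes over the 3 temperatures lay between 5063 and 6245 in all other fits except that with the testis covariate (1409). At 18 °C the count of 1710 was 940 with the compared libraries alone, 596 with the testis covariate and 1102 without the 3 libraries of high antimicrobial peptides. At 25 °C the count of 3027 was 901 with the covariate, and at 29 °C that of 4525 was 1389 with the covariate and 2288 without the 3 libraries. The change between 18 and 29 °C, 662 genes, gave 255 with the compared libraries alone and 183 without the 3 libraries. The copy-number comparison, 297 genes, gave 184 with the covariate and 195 without the 3 libraries. Leaving out 1 library at a time gave 5469 to 5928 genes over the 3 temperatures, 684 to 1900 at 18 °C, 1635 to 2801 at 25 °C, 3408 to 4207 at 29 °C, 481 to 691 for the change and 199 to 323 for copy number. At 18 °C the count was 684 without replicate 1 of Mito, 978 without replicate 3 of Mito, 950 without replicate 2 of NLS and 1136 without replicate 3 of NLS, and at 25 °C 1635 without replicate 1 of Mito and 1797 without replicate 3 of NLS. Quantile normalization left 39.4% of the calls for the change higher in Mito, against 54.5%, and median-ratio size factors left 48.3% of the copy-number calls higher, against 28.0%. At 18 °C without the 3 libraries 39.3% of calls were higher, against 49.0%.

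With a replicate block the count over the 3 temperatures was 5944, and none of 199 named differences lost its call. Of those 199, the number that kept its sign but was no longer past the threshold was 1 with a pseudocount of 0.1, 3 with no filter, 5 with quantile normalization and 0 with median-ratio size factors. It was 13 with the compared libraries alone and 80 with the testis covariate. Some of the differences also lost their call without the 3 libraries, and 15 did when some single library was left out. With the covariate a further 6 changed sign and were not past the threshold: Hsp60B -0.0007, Atg16 -0.0096, Hex-C 0.0147, Pen -0.0429, Kap-alpha1 -0.0041 and yem -0.0024. The covariate raised standard errors by a median of 1.5 times, and the genes called higher without it had a median difference of 0.02 with it and 0.23 without it. The cause of these changes was not tested. The depth behind a TPM value is unknown, which limits what can be said of genes near 1 TPM.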
